A study of Mus musculus with 6 samples.

Results

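The 9 genes described here encode proteins used or proposed as markers of acute kidney injury, and they were read in intercalated cells sorted 2 h after renal ischemia reperfusion injury (IRI) or sham surgery. They were chosen by symbol (Lcn2, Spp1, Clu, Havcr1, Cd44, Lgals3, Sox9, Sox4 and Cd68) among the 37583 genes of the deposited tables. Each was found, and 8 of the 9 had enough reads to be tested. The symbol Sox4 stands on a pair of rows, one of which has 0 reads in every library, so 10 rows carry the 9 symbols and the Sox4 row with reads was used. The IRI group and the sham group each held 3 samples. Both groups carried the same B1 VATPase EGFP transgene, in which EGFP marks intercalated cells, and all mice were 12 weeks old. Each sample joined cells from 4 kidneys of 2 mice, taken from the renal medulla and sorted for EGFP in 2 passes, so the values are means over pooled animals. No unoperated mice are among the samples used here, so any effect of surgery itself that both groups share cannot be seen. The labels are at odds with this in 2 fields, which name the epididymis as the tissue and Cx3cr1 as the gene that drives EGFP.

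Intercalated cells are the acid- and base-secreting cells of the collecting duct, where they sit among the water- and sodium-handling principal cells. Acute injury of the kidney is known mainly from the proximal tubule, whose damaged cells shed the membrane protein KIM-1 (Havcr1) into the urine, lose their mature functions and re-express developmental factors such as SOX9. The distal nephron and collecting duct are the better known source of urinary NGAL (Lcn2), a small iron-carrier-binding protein of the innate defence against bacteria.

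The libraries carried the markers of the kidney and of the sorted cells. All 9 intercalated-cell markers passed the filter on low counts, among them Car2, the cytosolic carbonic anhydrase, at 9558 ± 1192 CPM, the read count scaled to a common library size, in IRI cells and 9443 ± 987 CPM in sham cells (SD, n = 3 each). Of these 9, 0 rose and only Atp6v1b1, the proton pump subunit after which the transgene is named, fell (log2 -0.37, adjusted p = 0.0427), a call that was lost without IRI replicate 1 or 3 or sham replicate 2 or 3 (adjusted p = 0.0882 to 0.119). Other settings gained calls. Aqp6 was higher with the DESeq2 test (log2 0.87) and without IRI replicate 1 (1.17), and Foxi1 without IRI replicate 3 (0.55). When same-numbered samples were paired, Slc4a9 was higher (0.40) and Slc26a4 lower (-0.27). Slc4a9 was also higher without sham replicate 2 (0.57). The 8 epididymal markers summed to 1.08, 1.15 and 2.17 CPM in IRI libraries and to 2.44, 1.22 and 1.31 CPM in sham libraries. Of them, Cst8 was the only one with enough reads to be tested, with 12, 19 and 44 reads in IRI libraries and 59, 24 and 17 in sham libraries, and Lcn5 and Lcn8 had 0 reads in every library. Cx3cr1 had 1 read in IRI cells and 1 in sham cells. RNA of principal cells was present, with Aqp2 at 6578 ± 2443 CPM in IRI cells and 9363 ± 329 CPM in sham cells. The 6 principal cell markers summed to 10592, 5424 and 8130 CPM in IRI libraries. In sham libraries they summed to 12401, 11217 and 11639 CPM, so every IRI library was lower. Of the 5 tested, 2 fell and 0 rose, beside 21.2% lower and 24.2% higher among all tested genes. The 3 thick ascending limb markers summed to 614 to 1119 CPM in IRI libraries and 682 to 1175 CPM in sham libraries. The 3 thin limb markers summed to 238 to 393 CPM in IRI libraries and 182 to 235 CPM in sham libraries. The 8 proximal tubule markers together reached 2.06 to 6.47 CPM in IRI cells and 4.09 to 8.41 CPM in sham cells. The part of these other tubule cells in the values below was not tested. The reads assigned to genes numbered 22478011 to 24245330 in IRI libraries and 17421669 to 23061108 in sham libraries. Across all genes, 13881 were tested, of which 24.2% were called higher in IRI cells, 21.2% were called lower and 45.5% were called in either direction (edgeR's quasi-likelihood test, Benjamini-Hochberg adjusted p under 0.05). Nothing in the labels states that the 3 samples of a group were prepared in separate experiments, so p-values here rest on the spread among the pools as sequenced, which may be technical.

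Of the 8 injury markers tested, 7 rose in IRI cells and 0 fell, beside the 24.2% of all tested genes that rose. Cd68 rose most, followed by Lcn2, Cd44, Sox9, Lgals3, Spp1 and Clu, with fold changes between 41.9 and 2.07. Sox4 was not called, and Havcr1, the gene of KIM-1, was close to absent in both groups. In 7 of the 8 all 3 IRI libraries lay above all 3 sham libraries, as in 29.2% of all tested genes, while the groups failed to overlap in either direction in 56.4%. The median log2 fold change of the 8 was 2.47, against 0.00038 for all tested genes. Cd44 had few sham reads and entered the test through its IRI libraries, so a higher call was favoured in advance. In bulk samples such as these, more RNA per cell and more cells that carry the RNA cannot be told apart.

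The 3 genes with the greatest fold changes are shown first by the sequence just before their transcription starts. RefSeq promoter entries on GRCm38.p6 were matched for 7 of the 9 genes, and the 250 upstream bases are printed 5′ to 3′ on the coding strand. The deposited counts were made on another build, mm9, so no count was read at these coordinates. Capitals mark matches, on either strand, to 7 short motifs that were picked after the values were known. The motifs were NF-kB (GGG, then 5 bases of any kind, then CC), AP-1 (TGANTCA), C/EBP (TTGCNNAA), STAT (TTCNNNGAA), TEAD (GGAATG), the TATA box (TATAAA) and the hypoxia response core (ACGTG).
Cd68, chr11:69666171-69666420, minus strand: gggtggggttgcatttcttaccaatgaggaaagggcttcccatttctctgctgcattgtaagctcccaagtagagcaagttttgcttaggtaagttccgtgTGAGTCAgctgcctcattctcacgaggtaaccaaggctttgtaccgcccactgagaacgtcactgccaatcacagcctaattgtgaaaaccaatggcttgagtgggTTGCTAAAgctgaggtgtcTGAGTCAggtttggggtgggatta
Lcn2, chr2:32387740-32387989, minus strand: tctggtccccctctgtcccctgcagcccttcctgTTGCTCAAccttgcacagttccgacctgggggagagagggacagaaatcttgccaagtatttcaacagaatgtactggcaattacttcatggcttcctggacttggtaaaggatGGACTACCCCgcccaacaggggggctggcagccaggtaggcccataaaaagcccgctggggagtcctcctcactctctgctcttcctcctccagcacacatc
Cd44, chr2:102901666-102901915, minus strand: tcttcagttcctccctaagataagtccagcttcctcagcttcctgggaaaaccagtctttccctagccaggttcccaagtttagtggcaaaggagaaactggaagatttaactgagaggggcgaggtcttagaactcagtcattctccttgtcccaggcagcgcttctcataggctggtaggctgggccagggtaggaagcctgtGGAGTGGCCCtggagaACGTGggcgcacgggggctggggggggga
The Cd68 stretch holds the AP-1 letters at -149 to -143 and again at -24 to -18, counted from the start site, and the C/EBP letters at -43 to -36. Of 32851 mouse promoters of the same length, 6.75% held the AP-1 letters and 0.338% held them in 2 or more places, and 9.56% held the C/EBP letters. The Lcn2 stretch holds a C/EBP match and an NF-kB match, the NF-kB match at -102 to -93. The Cd44 stretch holds an NF-kB match at -45 to -36 and the hypoxia core at -29 to -25. These are common letters, since 45.8% of all promoters held the NF-kB motif and 16.6% the hypoxia core. A match is a description of the sequence and does not show that a factor was bound.

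**Figure D1:**
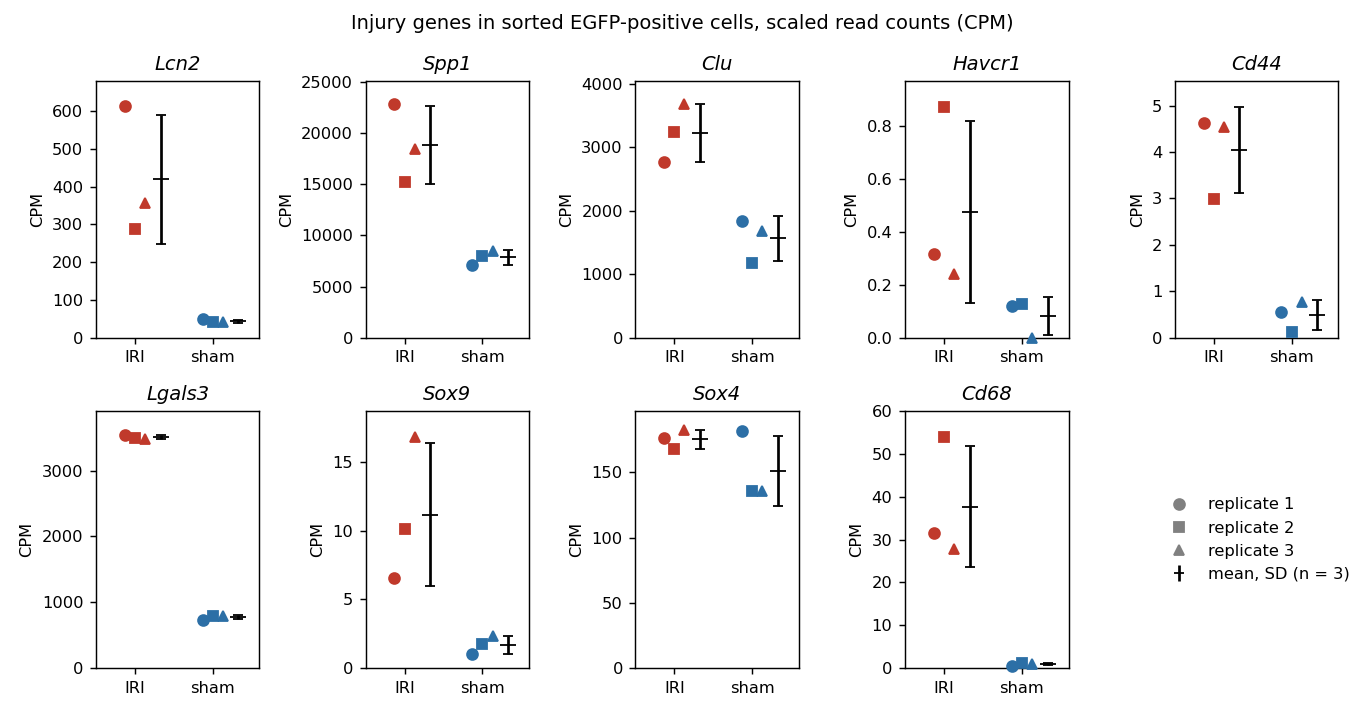
CPM in each library for the 9 injury markers, 1 panel per gene on a linear axis from 0, IRI left of sham; circle, square and triangle mark replicates 1, 2 and 3, and the bar beside them is the mean with its SD (n = 3). In the 7 called genes the IRI libraries all sit above the sham libraries, in Sox4 the groups overlap, and in Havcr1, which was not tested, every library lies below 1 CPM.

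Lcn2 (ENSMUSG00000026822) encodes lipocalin-2, or NGAL, which binds bacterial siderophores and is measured in urine and blood as an early sign of tubular injury. It stood at 613, 289 and 356 CPM in the 3 IRI libraries and at 48.4, 41.3 and 40.6 CPM in the 3 sham libraries. The lowest IRI library was 6.66 times the sham mean and the highest 14.1 times, so the groups lay far apart, and the IRI libraries differed among themselves far more (coefficient of variation 40.7%) than the sham libraries (9.84%). The group means were 419 ± 171 CPM in IRI cells and 43.4 ± 4.28 CPM in sham cells (SD, n = 3 each), a 9.64-fold difference (log2 3.27 ± 0.29 SE, edgeR adjusted p = 0.000161). Per length, Lcn2 ranked 421 among all genes in IRI cells at 189.7 ± 79.2 RPKM and 2866 in sham cells at 20.1 ± 2.00 RPKM. Neither gene next to it on the chromosome was called: 1110008P14Rik had a log2 difference of 0.13 (adjusted p = 0.365) and Ptges2 one of -0.23 (adjusted p = 0.170).

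Spp1 (ENSMUSG00000029304) encodes osteopontin, a secreted, integrin-binding phosphoprotein that inhibits crystal growth in urine and acts as a cytokine in injured tissue. It had 22875, 15235 and 18434 CPM in IRI libraries, against 7064, 8020.0 and 8487 CPM in sham libraries. All 3 IRI libraries exceeded the highest sham library, and the lowest of them was 1.94 times the sham mean. The fold change was 2.40 (log2 1.26 ± 0.17 SE, edgeR adjusted p = 0.000499). Spp1 was abundant in both groups. It took 1.37 to 2.23% of the reads assigned to genes in IRI libraries and 0.780 to 0.896% in sham libraries, and per length it ranked 1 among all genes in IRI cells (10854 ± 2305 RPKM) and 8 in sham cells (4636 ± 419 RPKM). Its neighbour Pkd2, mutated in polycystic kidney disease, differed by a log2 of 0.01 (adjusted p = 0.957), and its other neighbour Mepe had 0 reads in every library.

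Clu (ENSMUSG00000022037) encodes clusterin, a secreted chaperone that holds misfolded proteins in solution and is excreted in urine after tubular injury. It had 2775, 3235 and 3690.0 CPM in IRI libraries and 1843, 1172 and 1678 CPM in sham libraries. The groups did not overlap, with all 3 IRI libraries above the highest sham library. The means of 3233 ± 458 CPM in IRI cells and 1564 ± 349 CPM in sham cells gave a fold change of 2.07 (log2 1.05 ± 0.19 SE, edgeR adjusted p = 0.00197). Clusterin was thus the member with the smallest called change.

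Havcr1 (ENSMUSG00000040405) encodes KIM-1, a phosphatidylserine receptor with which injured proximal tubule cells take up dying neighbours, and its shed ectodomain is a standard urinary marker. It had 7, 19 and 5 reads in IRI libraries, against 3, 3 and 0 reads in sham libraries. These counts were below the filter, so the gene was not part of the test. The sums of 31 reads in IRI cells and 6 in sham cells gave a depth-scaled ratio of 5.39, with a 95% interval of 2.21 to 15.8 that covers counting error only. When the filter was dropped, the log2 difference was 2.35 ± 0.85 SE with an edgeR adjusted p of 0.0407. IRI replicate 2 held most of the IRI reads. Per length its level in IRI cells was 0.204 ± 0.147 RPKM, at the 33.5 percentile of detected genes, and 0.0359 ± 0.0312 RPKM in sham cells, so any change took place at a level of a few reads per library.

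Cd44 (ENSMUSG00000005087) encodes the main receptor for hyaluronan, which is present on many migrating and regenerating epithelia and also binds osteopontin. The counts were 103, 65 and 94 reads in IRI libraries and 14, 3 and 14 reads in sham libraries, or 4.63, 2.98 and 4.54 CPM in IRI cells and 0.550, 0.127 and 0.761 CPM in sham cells. Every IRI library was above every sham library, at a low level in both groups. The fold change was 8.55 (log2 3.10 ± 0.50 SE, edgeR adjusted p = 0.00128). Since the counts are low, a pseudocount shrinks the value: the log2 difference was 1.86 on log2(RPKM + 0.1) and 0.47 on log2(RPKM + 1), and both were called.

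Lgals3 (ENSMUSG00000050335) encodes galectin-3, a lectin that binds beta-galactoside sugars at the cell surface, in the cytosol and on damaged lysosomes. It was the most even of the genes, with 3541, 3502 and 3475 CPM in IRI libraries and 732, 785 and 795 CPM in sham libraries. The coefficient of variation was 0.944% in IRI cells and 4.37% in sham cells, so the difference between groups was many times the spread within them. The fold change was 4.55 (log2 2.19 ± 0.11 SE, edgeR adjusted p = 6.41e-06), the smallest adjusted p among the 8 tested genes. Per length Lgals3 ranked 25 among all genes in IRI cells (1892 ± 35.2 RPKM) and 158 in sham cells (427 ± 18.2 RPKM). Its neighbour Dlgap5, a mitotic spindle gene, differed by a log2 of -0.06 (adjusted p = 0.921).

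Of the SOX transcription factors in the set, Sox9 rose and Sox4 was not called. Sox9 (ENSMUSG00000000567), which is needed for nephron development and is re-expressed in surviving tubule cells during repair, had 6.56, 10.1 and 16.9 CPM in IRI libraries and 0.982, 1.73 and 2.34 CPM in sham libraries. The groups did not overlap, and within the IRI group the highest library was well above the lowest. The fold change was 6.71 (log2 2.75 ± 0.43 SE, edgeR adjusted p = 0.00145). Sox4 (ENSMUSG00000076431), a factor of progenitor cells and kidney development, had 176, 168 and 182 CPM in IRI libraries and 182, 135 and 136 CPM in sham libraries. Here sham replicate 1 was as high as the IRI libraries, and the groups overlapped. Sox4 had a log2 difference of 0.22 ± 0.13 SE (edgeR adjusted p = 0.203). Over 15 alternative analyses its adjusted p ran between 0.0209, without sham replicate 1 (log2 0.35), and 0.953, with scaling to library size alone (log2 0.01). Sox4 was the more abundant of the pair per length, at 30.4 ± 1.31 RPKM against 6.48 ± 2.99 RPKM for Sox9 in IRI cells, and at 26.8 ± 4.78 RPKM against 1.00 ± 0.402 RPKM in sham cells.

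Cd68 (ENSMUSG00000018774) encodes macrosialin, a heavily glycosylated protein of lysosomes and endosomes that is best known as a marker of macrophages. It had 701, 1177 and 575 reads in IRI libraries, against 14, 28 and 18 reads in sham libraries, or 31.5, 53.9 and 27.8 CPM in IRI cells and 0.550, 1.18 and 0.979 CPM in sham cells. Each IRI library was at least 30.7 times the sham mean, and IRI replicate 2 was 59.7 times it. The fold change of 41.9 (log2 5.39 ± 0.37 SE, edgeR adjusted p = 3.88e-05) was at the 99.6 percentile of the log2 fold changes of all tested genes. On log2(RPKM + 1) the difference was 3.98, and it was called.

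Because Cd68 marks macrophages, the markers of such cells are given beside it. Of 16 macrophage and dendritic cell markers, 8 were tested, of which Cd14 (log2 2.05 ± 0.29 SE, adjusted p = 0.000975) and Lyz2 (log2 1.69 ± 0.42 SE, adjusted p = 0.0103) rose and 0 fell. These 2 of 8 are near the 24.2% of all tested genes that rose, and 21.2% of all tested genes fell. The summed level of the 16 markers was 48.4, 47.2 and 29.7 CPM in IRI libraries and 18.7, 8.14 and 13.4 CPM in sham libraries, so it was higher in every IRI library. Without Cd14, a lipopolysaccharide co-receptor, the other 15 summed to 8.98, 10.8 and 7.49 CPM in IRI libraries and 8.17, 2.62 and 5.87 CPM in sham libraries, and the groups overlapped. Among the defining genes, Emr1, which encodes the macrophage surface protein F4/80, had 7 reads in IRI cells and 2 in sham cells in all, and Itgax had 5 in IRI cells and 0 in sham cells. The complement genes C1qa, C1qb and C1qc and the growth factor receptor gene Csf1r were tested and not called.

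Cd68 also lies next to Eif4a1, the gene of a translation initiation helicase, on the same chromosome and strand. Eif4a1 had 91.7 ± 5.92 CPM in IRI cells and 42.6 ± 2.92 CPM in sham cells (SD, n = 3 each), a log2 difference of 1.11 ± 0.10 SE (adjusted p = 6.73e-05). Eif4a1 has near-identical copies elsewhere in the genome, so its own counts are uncertain. Whether reads of other cells or of the neighbouring gene had a part in the Cd68 counts was not tested.

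**Figure D2:**
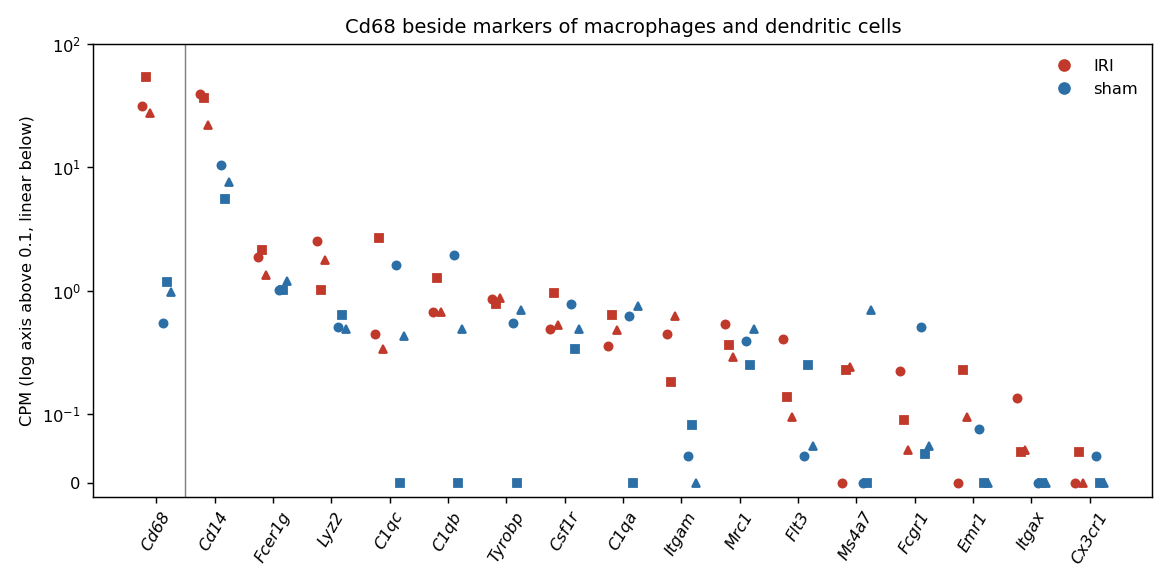
CPM of Cd68 and of each of the 16 macrophage and dendritic cell markers in each library, IRI points left of sham points for each gene, on an axis that is logarithmic above 0.1 CPM and linear below; circle, square and triangle mark replicates 1, 2 and 3. Cd68 lies between 27.8 and 53.9 CPM in IRI libraries and between 0.550 and 1.18 CPM in sham libraries, Cd14 is the marker with the highest CPM, and the other markers stay below 3 CPM in every library.

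Neutrophils, which carry Lcn2 in their granules, were followed in the same way. None of 11 neutrophil markers had enough reads to be tested. Their summed reads were 117, 40 and 3 in IRI libraries and 3, 2 and 0 in sham libraries. The granule genes Camp and Elane had 0 reads in every library, and Ltf had 12, 9 and 2 reads in IRI libraries and 0 in each sham library. In IRI replicates 1 and 2, most of the summed neutrophil reads came from other markers of the list, so Camp, Elane and Ltf do not represent it. The summed level of the 11 markers was 5.25, 1.83 and 0.145 CPM in IRI libraries. It was 0.118, 0.0844 and 0 CPM in sham libraries, so it was higher in every IRI library. IRI replicate 1 was the highest in both neutrophil reads and Lcn2, and IRI replicate 3 had 3 neutrophil reads and 356 CPM of Lcn2. Sox9 and Clu were highest in IRI replicate 3 among the IRI libraries, and so were the markers of the papillary surface urothelium, which summed to 10.8, 13.6 and 68.5 CPM in IRI libraries and to 10.4, 8.10 and 17.1 CPM in sham libraries. IRI replicate 1 had a lower sum of these urothelial markers than sham replicate 3, and more Sox9 and Clu than any sham library. The part of neutrophils or urothelial cells in the Lcn2, Sox9 and Clu values was not tested.

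**Figure D3:**
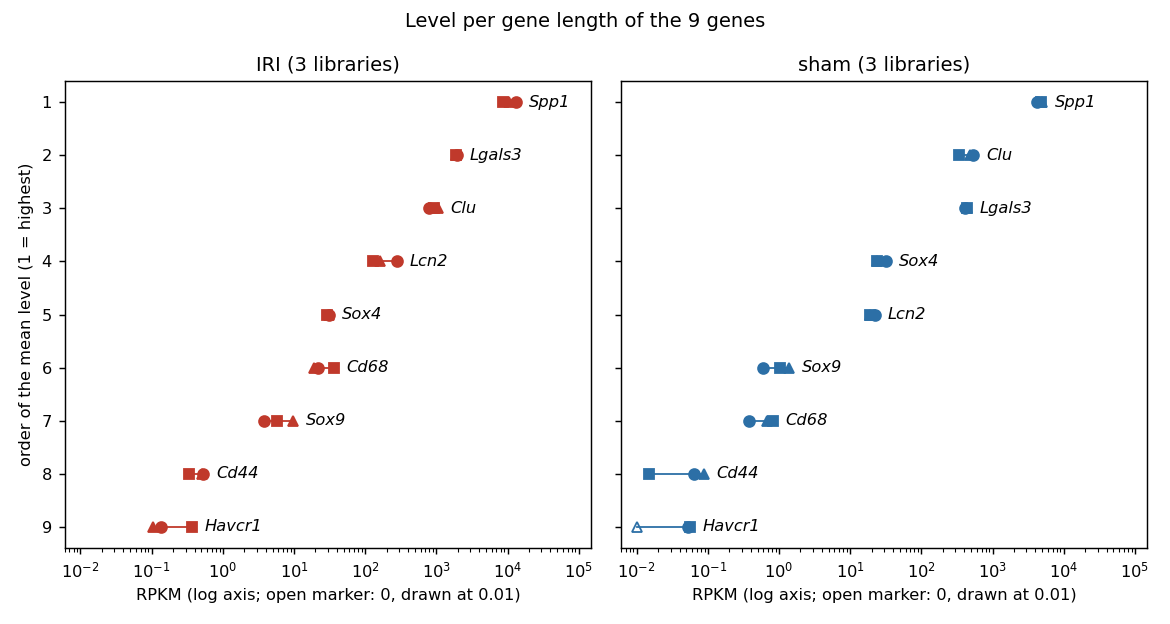
Deposited RPKM of the 9 genes on a log axis, IRI panel left of the sham panel, with genes ordered by mean level from the top; circle, square and triangle mark replicates 1, 2 and 3, a line joins them, and an open marker at 0.01 stands for a value of 0. Spp1 is highest and Havcr1 lowest in both groups, while Lgals3, Lcn2 and Cd68 hold a higher place in IRI cells than in sham cells.

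Per length, the order in IRI cells was Spp1, Lgals3, Clu, Lcn2, Sox4, Cd68, Sox9, Cd44 and Havcr1. Neighbours in this order had ranges that did not meet, except Sox4 with Cd68 and Cd44 with Havcr1. In sham cells the order was Spp1, Clu, Lgals3, Sox4, Lcn2, Sox9, Cd68, Cd44 and Havcr1, and the ranges met for Clu with Lgals3, Sox9 with Cd68 and Cd44 with Havcr1. Cd68 stood at 25.7 ± 9.53 RPKM in IRI cells, next to Sox4, and at 0.631 ± 0.226 RPKM in sham cells, next to Sox9. No single IRI library was highest throughout. IRI replicate 1 was highest for 4 genes (Lcn2, Spp1, Cd44 and Lgals3), IRI replicate 2 for 2 genes (Havcr1 and Cd68) and IRI replicate 3 for 3 genes (Clu, Sox9 and Sox4).

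**Figure D4:**
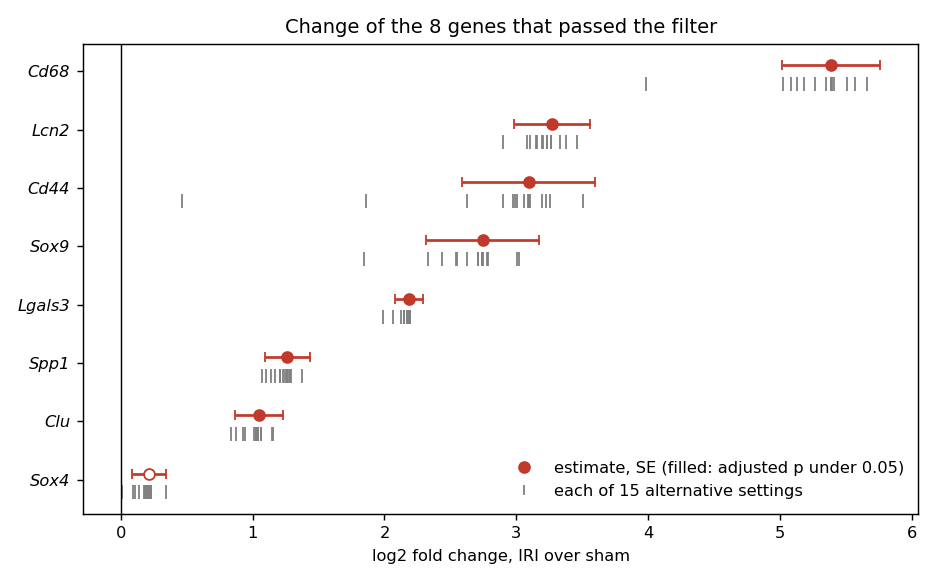
Log2 fold change of IRI over sham for the 8 tested injury markers, as points with bars of 1 SE (filled where called), above grey ticks for the 15 alternative analyses. Cd68 (5.39) is farthest to the right, Sox4 (0.22) is closest to 0, and the ticks far to the left of their point for Cd44 (0.47 and 1.86), Sox9 (1.84) and Cd68 (3.98) are the fits on RPKM with a pseudocount.

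Genes with the most similar profile over the 6 samples were looked up among 8169 well-detected genes, by the root mean square difference of log2 CPM after centring. This measure is a description, and all such pairs share the same libraries. Closest to Cd68 were S100a6, a calcium-binding protein, at 0.208 and the urokinase receptor gene Plaur at 0.258. Closest to Lcn2 was the sphingosine kinase gene Sphk1 at 0.176, followed by the endosomal gene Ehd4 at 0.287, and closest to Lgals3 were Mpzl3 at 0.0876 and Sat1, a polyamine acetyltransferase, at 0.0901. Sox9 was nearest to Klf6 (0.284) and Fgfbp1 (0.286), and Cd44 to the interferon factor gene Irf1 (0.446) and Nfil3 (0.500). Spp1 was nearest to the phosphodiesterase gene Pde1c (0.103) and Ept1 (0.130), Clu to the pyruvate dehydrogenase phosphatase gene Pdp1 (0.0791) and Dmpk (0.107), and Sox4 to the nuclear import gene Tnpo1 (0.0307) and Kdm3a (0.0447).

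Other proteins measured in urine or blood in kidney disease were mixed. Of 34 such genes, 25 were tested, 8 rose and 2 fell, beside 24.2% higher and 21.2% lower among all tested genes, with a median log2 fold change of 0.46. Without IRI replicate 2 only 5 rose, without IRI replicate 1 or sham replicate 3 only 1 fell, and with scaling to library size alone the split was 7 higher and 5 lower. The interleukin-6 gene Il6 had 37, 47 and 79 reads in IRI libraries and 0 in each sham library, which makes it at least 56.6-fold higher against a floor of 3 counts over the sham group (adjusted p = 0.000344). Plaur averaged 554 ± 252 CPM in IRI cells and 14.5 ± 5.12 CPM in sham cells (log2 5.25 ± 0.48 SE, adjusted p = 0.000399). Timp1, an inhibitor of matrix proteases, had 269 reads in IRI cells and 9 in sham cells, a scaled ratio of 31.2 (95% counting interval 16.2 to 68.9, adjusted p = 0.00072). Its fitted log2 difference was 4.86, or 4.19 without sham replicate 1 and 5.53 without sham replicate 3. Il6 and Timp1 entered the test through their IRI libraries, so a higher call was favoured in advance. Fga, the fibrinogen alpha chain, averaged 25.2 ± 13.3 CPM in IRI cells and 0.845 ± 0.411 CPM in sham cells (log2 4.85 ± 0.60 SE, adjusted p = 0.000905). Cystatin C, a filtration marker encoded by Cst3, had a log2 difference of 0.10 (adjusted p = 0.735), and Igfbp7, read in urine with Timp2 as a cell-cycle marker, one of -0.13 (adjusted p = 0.543).

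Genes known to be high in injured or repairing tubule cells were mostly higher in IRI cells. Of 30 listed, 26 were tested, 24 rose and 1 fell, beside 24.2% higher and 21.2% lower among all tested genes, with a median log2 fold change of 3.50 beside 0.00038 for all tested genes. The list was chosen with earlier results of these data known, so the comparison is not an independent one. Fosl1, Areg, Akap12, Vcam1 and Vim had few sham reads and entered the test through their IRI libraries. For them a higher call was favoured in advance, which raises the count and the median. Fosl1, an AP-1 subunit, had 386, 1352 and 978 reads in IRI libraries and 2, 1 and 0 reads in sham libraries, a scaled ratio of 944 (95% counting interval 323 to 4579, adjusted p = 0.00024), and its fitted log2 difference was 9.72, or 10.45 without sham replicate 1. Akap12, a scaffold of kinase A, averaged 37.6 ± 17.5 CPM in IRI cells and 0.335 ± 0.171 CPM in sham cells (log2 6.77 ± 0.52 SE, adjusted p = 8.96e-05). S100a6 averaged 331 ± 60.4 CPM in IRI cells and 7.87 ± 2.17 CPM in sham cells (log2 5.40 ± 0.25 SE, adjusted p = 8.74e-06). The keratin gene Krt19 rose too, by a log2 of 5.75 ± 0.90 SE (adjusted p = 0.00471), but its IRI libraries ranged widely, at 310.2, 1724 and 356 CPM, and without IRI replicate 2 the log2 difference was 4.47. The progenitor marker Prom1 was not called (log2 1.11 ± 0.73 SE, adjusted p = 0.268), and the nephric factor gene Pax2 fell by 0.88 on the log2 scale (adjusted p = 0.00559).

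**Figure D5:**
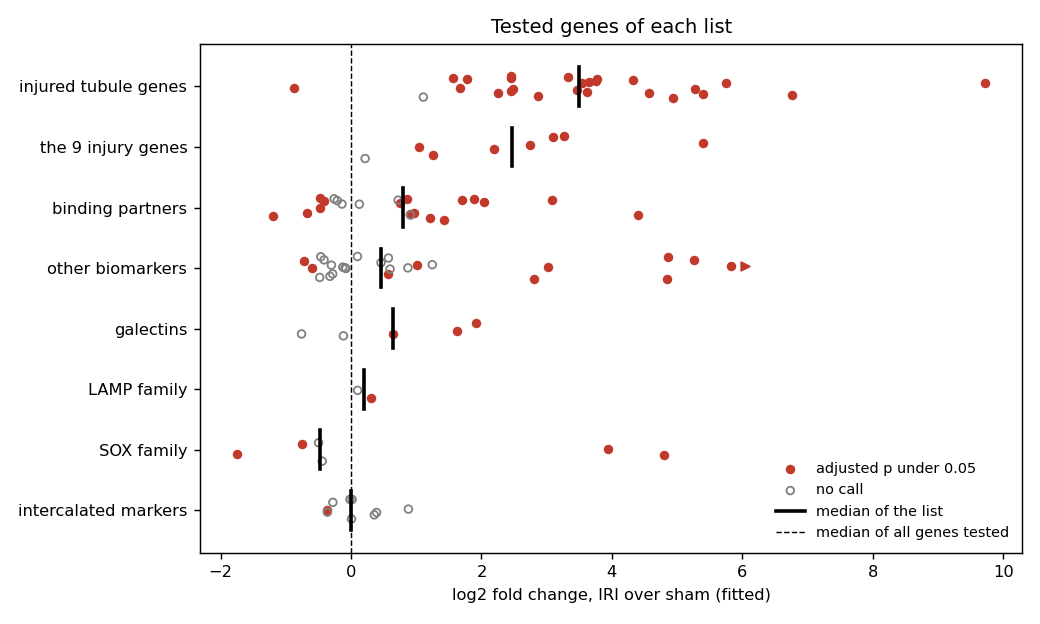
Fitted log2 fold change of IRI over sham for every tested gene of each related list, of the 9 injury markers and of the intercalated-cell markers, 1 row per list, with called genes filled, list medians as bars and the median of all tested genes as a dashed line; Il6, which has 0 sham reads, is drawn at its lower bound with a triangle that points right. In the injured-tubule row 24 of 26 genes are called higher, while the binding partners, the other biomarkers and the SOX relatives have called genes on both sides of 0.

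The molecules that bind, cleave or anchor these markers were listed as well, and of 31 listed, 22 were tested, 11 rose and 5 fell (median log2 0.80), beside 24.2% higher and 21.2% lower among all tested genes. With scaling to library size alone the split was 10 higher and 7 lower, and the 5 lower became 3 without IRI replicate 1, 2 without IRI replicate 2 or 3 and 1 without sham replicate 1 or 3. Among receptors of osteopontin, the integrin subunit genes Itgav (log2 1.70 ± 0.12 SE, adjusted p = 1.94e-05), Itga5 (log2 3.08 ± 0.28 SE, adjusted p = 6.98e-05) and Itgb1 (log2 0.75 ± 0.10 SE, adjusted p = 0.000525) rose, and Itgb5 was not called (log2 -0.21, adjusted p = 0.257). Lrp8, a lipoprotein receptor that binds clusterin, averaged 11.6 ± 2.74 CPM in IRI cells and 0.538 ± 0.0894 CPM in sham cells (log2 4.40 ± 0.28 SE, adjusted p = 1.37e-05). Around CD44, the linkers to actin moesin (Msn, log2 2.04 ± 0.29 SE, adjusted p = 0.00093) and ezrin (Ezr, log2 1.42 ± 0.14 SE, adjusted p = 0.000108) rose, as did Mmp14, a membrane protease that cleaves CD44 (log2 1.89 ± 0.17 SE, adjusted p = 5.77e-05). The third linker, radixin (Rdx), had a log2 difference of -0.14 (adjusted p = 0.233) and was called lower with library size alone and with upper-quartile scaling. Slc22a17, the lipocalin-2 receptor, fell by 0.41 on the log2 scale (adjusted p = 0.0332), a call that was lost without IRI replicate 3, sham replicate 1 or sham replicate 3 (adjusted p = 0.0767, 0.0826 and 0.0735). Hyal1 and Hyal2, listed with CD44, and Lrp2, listed with lipocalin-2 and clusterin, were called lower too. These calls were lost in several alternatives. Without sham replicate 3 the log2 differences were -0.59, -0.53 and -1.18 (edgeR adjusted p = 0.0600, 0.0737 and 0.0853).

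The relatives of the markers were followed by family. Of the galectins besides galectin-3, 5 were tested, and 3 rose and 0 fell under every scaling tried. These were Lgals1 (87.7 ± 4.74 CPM in IRI cells and 28.5 ± 2.63 CPM in sham cells, log2 1.62, adjusted p = 1.71e-05), Lgals9 (log2 1.92, adjusted p = 0.00337) and Lgals8, which flags damaged vesicles (log2 0.64, adjusted p = 0.00115). Lgals4 had a log2 difference of -0.12 (adjusted p = 0.767) and Lgals12 one of -0.76 (adjusted p = 0.232). Of the SOX family, 6 relatives were tested, and 2 rose and 2 fell, or 3 fell with library size alone and with upper-quartile scaling, where Sox13 (log2 -0.50, adjusted p = 0.0573) was called too. With so few SOX relatives tested, their counts are near the background of 24.2% higher and 21.2% lower. The galectin count of 3 higher among 5 is above that share, but it rests on few genes. Sox17 had 117 reads in IRI cells and 4 in sham cells, a scaled ratio of 30.5 (95% counting interval 11.6 to 113.8, adjusted p = 0.00032), and Sox7 rose by a log2 of 3.94 (adjusted p = 0.00179), or 3.07 without IRI replicate 2. Both are factors of endothelial cells, and the 5 endothelial markers summed to 14.1, 5.64 and 6.96 CPM in IRI libraries and to 0.511, 3.80 and 5.38 CPM in sham libraries. The part of such cells in the Sox17 and Sox7 values was not tested. Sox17 also entered the test through its IRI libraries, so a higher call was favoured in advance. Sox12 (log2 -1.74, adjusted p = 0.00187) and Sox6 (log2 -0.76, adjusted p = 0.00511) fell, and Sox5 was not called (log2 -0.44, adjusted p = 0.510).

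Of the lysosomal membrane proteins related to Cd68, Lamp2 differed by a log2 of 0.31 (adjusted p = 0.0296), and Lamp1 by 0.10 (adjusted p = 0.460). The Lamp2 call was lost with library size alone (adjusted p = 0.318), with upper-quartile scaling (0.138) and with no filter (0.0743). It was also lost without IRI replicate 2 (0.112) or 3 (0.0563) and without sham replicate 1 (0.0684), 2 (0.0642) or 3 (0.143). Per length, Lamp1 stood at 598 ± 36.3 RPKM in IRI cells and 572 ± 8.49 RPKM in sham cells, far above the 25.7 RPKM of Cd68 in IRI cells and its 0.631 RPKM in sham cells. The TIM relatives of Havcr1 were all below the filter. Timd4, which binds phosphatidylserine as KIM-1 does, had 13, 7 and 6 reads in IRI libraries and 0 in each sham library, at least 9.03-fold higher against a floor of 3 counts over the sham group. Havcr2 had 13, 3 and 0 reads in IRI libraries and 0 in each sham library, so its reads came mostly from IRI replicate 1, and no fold is given.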

How the data were processed

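RNA of EGFP-positive cells was sequenced in 6 libraries, 3 IRI and 3 sham, assigned to groups from the sample titles. The authors deposited raw read counts for each gene as whole numbers, without normalization, and the authors' RPKM values equal the count divided by gene length and an effective library size, so both tables carry the same reads. STAR, HTSeq, edgeR and the build mm9 are named per the submitters' processing notes, with versions not given in the sources used here. Per the file names counting ignored strand, and the amplification kit does not mark it, so strand could not separate the reads of a gene from those of an antisense partner. The table's 5 summary entries without a gene stayed out of every step. Reads assigned to genes were 49.1 to 50.7% of all recorded, and 39.9 to 42.4% aligned to several places, which lowers the counts of genes with near-identical copies.

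Counts were filtered (filterByExpr), scaled by TMM and fitted over all 13881 tested genes with edgeR 4.0.16 in R 4.3.3 (robust quasi-likelihood test), with Benjamini-Hochberg adjustment and calls at 0.05. The fit was tested on simulated counts with the same dispersion for every gene. Only 200 genes were changed, as many up as down, and they were drawn from genes with more reads. In the data 45.5% of tested genes were called, so the rates below may not carry over. It called 34 of 50 genes raised 2-fold and 39 of 50 lowered 2-fold. It called 50 of 50 raised 4-fold, 50 of 50 lowered 4-fold and 3 of 13485 unchanged genes. A change of 2-fold or less can thus be missed. CPM are on TMM-scaled library sizes. SE is the log2 fold change divided by the square root of F. Alternatives used limma 3.58.1 on log2(RPKM + 0.1) and log2(RPKM + 1), DESeq2 1.42.0, other scalings and filters, single libraries left out and a replicate block. Intervals on read sums are exact binomial at 95%, for counting error only.

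The members and all lists were chosen with earlier results of these data known. Beside the 9 members, the text names up to 4 called genes of each related list with the greatest change and up to 2 uncalled ones with the highest level, together with chromosomal neighbours where the RefSeq gene order gives them and the 2 most similar profiles. Pax2, Itgav, Itgb1, Ezr, Slc22a17, Hyal1, Hyal2, Lrp2 and several cell type markers stand outside this rule and were chosen after their values were seen.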

Additional observations from a re-analysis of the deposited data

How the results depend on the processing

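The 7 genes called higher kept that call in 105 of 105 values under 15 alternatives; Sox4 alone changed, becoming a call without sham replicate 1. Leaving out each library in turn gave log2 differences of 5.02 to 5.66 for Cd68, 2.90 to 3.46 for Lcn2, 2.63 to 3.51 for Cd44, 2.33 to 3.02 for Sox9, 2.12 to 2.19 for Lgals3, 1.10 to 1.38 for Spp1 and 0.87 to 1.16 for Clu. The 8 called without a filter include Havcr1. Cd44, Sox9 and Cd68 moved by over 1.5 times only on log2(RPKM + pseudocount), Sox9 to 1.84. Scaling to library size alone shifted all genes by a median of -0.20 on the log2 scale and upper-quartile scaling by -0.12. The share of calls that were higher was 35.6% with library size alone and 42.0% with upper-quartile scaling, against 53.3% with TMM, where 3364 genes were called higher and 2948 lower (2400 and 4337 with library size alone). Of the related lists 49 genes rose and 10 fell; with library size alone 16 fell, and with single libraries left out 5 to 9 fell. Same-numbered samples deviated together with correlations of 0.182, 0.0952 and 0.178, while the other pairs ran from -0.172 to 0.0297. Each sample thus correlated best with its own number, and the sample titles run in consecutive same-numbered pairs. The labels do not state a pairing, so the main fit left it out and its p-values ignore any that exists. Whether same-numbered samples were prepared together was not tested. With a replicate block 3368 genes were called higher and 3095 lower, and 7 of the injury markers were called, as without it. Every tested injury marker had a smaller SE with the block, as for Sox9 at 0.20 against 0.43. The edgeR adjusted p of Spp1, Clu and Lgals3 was larger with it. Depth limits what can be said of Havcr1, at 0 to 19 reads per library.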
